A study of Mus musculus with 6 samples.

Results

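The imprinted genes Sgce, Peg10, Ndn, Snrpn, Peg3, Impact, Plagl1, Cdkn1c, Igf2r and Grb10 were followed in mouse primitive macrophages grown from embryonic stem cells. They are 10 of the 55487 genes in the deposited tables and were found there by symbol, as a list drawn up with earlier results of these data known, and all 10 passed the filter on low counts. The 6 RNA sequencing libraries came from 3 lots of Ts1Cje cells and 3 lots of wild-type cells, called replicates 1 to 3 of each genotype here. Ts1Cje mice carry an extra copy of a segment of chromosome 16 joined to chromosome 12 and serve as a model of Down syndrome. The stem cells of both genotypes had been kept in LIF and were then given M-CSF, IL-3, SCF, VEGF, activin A, BMP-4 and FGF2 over 12 days. The study asked why Ts1Cje embryos hold fewer microglia, the brain macrophages that descend from such primitive macrophages. The labels do not say whether the lots of a genotype were separate stem cell lines, clones of a line or repeated cultures, so the p-values measure the spread between these libraries, which may be technical. Of the 10 genes, 0 lie on chromosome 16 and 0 on chromosome 12, so none lies in the segment in extra copy.

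An imprinted gene is read from the copy inherited from a single parent, while the other copy is kept silent by DNA methylation or by a non-coding RNA that a methylated region controls. The methylation of the regions that control imprinting, though not of every imprinted promoter, is laid down in the egg or the sperm. It has to be copied at every division of the embryo's cells. Many imprinted genes act on growth: as a rule, genes read from the father's copy favour it and genes read from the mother's copy restrain it. Sgce, Peg10, Ndn, Snrpn, Peg3, Impact and Plagl1 are read from the father's copy in mouse. Cdkn1c and Igf2r are read from the mother's copy, and so is Grb10 outside neurons. The counts add up the reads of both parental copies, so which copy was read in these macrophages was not measured.

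The promoters of Igf2r, Peg3, Snrpn and Ndn are shown because each is known to carry methylation on a single parental copy in mouse, on the father's for Igf2r and on the mother's for the other 3. Each window holds 250 bases before and 50 bases after a RefSeq start (GRCm38.p6), is written 5′ to 3′ on the gene's own strand, and has its CG dinucleotides, the sites of methylation, in capitals. The Igf2r window is chr17:12769657-12769956 (minus strand), the Peg3 window chr7:6730370-6730669 (minus strand), the Snrpn window chr7:60005150-60005449 (minus strand) and the Ndn window chr7:62348027-62348326 (plus strand, inside the span deposited for Ndn).
Igf2r promoter: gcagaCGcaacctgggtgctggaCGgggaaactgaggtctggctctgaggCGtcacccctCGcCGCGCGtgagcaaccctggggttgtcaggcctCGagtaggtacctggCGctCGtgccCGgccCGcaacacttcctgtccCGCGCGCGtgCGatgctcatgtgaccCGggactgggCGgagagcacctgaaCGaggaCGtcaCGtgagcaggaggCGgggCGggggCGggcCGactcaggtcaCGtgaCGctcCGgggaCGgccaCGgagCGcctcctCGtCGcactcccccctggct
Peg3 promoter: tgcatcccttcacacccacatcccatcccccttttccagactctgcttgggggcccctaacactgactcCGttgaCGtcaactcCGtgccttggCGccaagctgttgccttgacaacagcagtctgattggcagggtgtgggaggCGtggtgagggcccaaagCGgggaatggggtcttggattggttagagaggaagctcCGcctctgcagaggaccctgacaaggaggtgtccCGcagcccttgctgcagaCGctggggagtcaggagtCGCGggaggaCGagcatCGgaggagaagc
Snrpn promoter: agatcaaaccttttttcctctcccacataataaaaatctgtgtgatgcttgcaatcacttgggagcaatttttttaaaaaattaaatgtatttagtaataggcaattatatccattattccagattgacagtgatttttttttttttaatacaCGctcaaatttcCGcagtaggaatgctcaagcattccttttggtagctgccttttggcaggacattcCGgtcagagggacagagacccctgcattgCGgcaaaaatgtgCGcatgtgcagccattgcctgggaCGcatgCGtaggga
Ndn promoter: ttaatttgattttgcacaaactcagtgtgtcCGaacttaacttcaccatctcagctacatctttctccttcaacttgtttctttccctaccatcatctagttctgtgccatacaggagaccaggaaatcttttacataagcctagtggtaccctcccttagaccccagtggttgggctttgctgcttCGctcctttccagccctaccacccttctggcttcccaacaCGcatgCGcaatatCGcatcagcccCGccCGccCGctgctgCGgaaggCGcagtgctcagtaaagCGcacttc
The 4 windows differ widely in CG content. The Igf2r window holds 34 CG dinucleotides, more than 92.3% of the 32851 mouse promoters in the same RefSeq table, whose median is 7. The Peg3 window holds 13, the Ndn window 11 and the Snrpn window 7. RefSeq windows were examined for 6 of the 10 genes, with 10 windows in all. The richest of them, at the upstream start of Grb10 (chr11:12037371-12037670, minus strand), holds 45 CG dinucleotides, and that of Plagl1 (chr10:13090582-13090881, plus strand) holds 26. TGCCGC, the hexamer that the imprint-keeping protein ZFP57 reads when methylated, was searched on both strands. It stands once in each of these Grb10 and Plagl1 windows and once in the Snrpn window shown, and 11.6% of all promoters in the table hold it. Sgce, Peg10 and Cdkn1c had no window in the table, and no window of Impact was examined.

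Peg10 descends from a retrotransposon, and its RNA is known to be translated in an overlapping second frame when the ribosome slips back at a 7-base site. The stretch around that site is shown because the counts cannot tell the products of the 2 frames apart. It is coding sequence of the transcript Peg10-202 (GENCODE M21, GRCm38) at chr6:4755300-4755362 on the plus strand, written 5′ to 3′ with the slippery site in capitals.
Peg10 coding stretch: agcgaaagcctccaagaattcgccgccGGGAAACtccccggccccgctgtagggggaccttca
The slippery site spans chr6:4755327-4755333 and ends 15 bases before the stop codon of the first frame.

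Total counts were 26146044 to 32658148 in the Ts1Cje libraries and 25484294 to 26372632 in the wild-type libraries. The cells carried the RNA of macrophages: all 15 macrophage markers passed the filter on low counts, and their summed level was 28361 to 46468 TPM (counts scaled by gene length to an equal sum in each library) in Ts1Cje and 24531 to 45161 TPM in wild-type. Lyz2, Cd68 and Tyrobp, a lysozyme, a lysosomal protein and an immune adaptor, led that list. Of 8 pluripotency markers only Klf4 was tested, and the list summed to 2.52 to 5.45 TPM in Ts1Cje and 0.852 to 4.93 TPM in wild-type, with Sox2 and Esrrb at 0 throughout. Klf4 alone had 0.901 to 3.01 TPM in Ts1Cje and 0.677 to 4.93 TPM in wild-type. Dppa5a had 6, 10 and 14 counts and Pou5f1 8, 2 and 1 counts in Ts1Cje, and both had 0 in each wild-type library. Tdgf1 had a few reads in both genotypes. The first principal component of log2 CPM (CPM are counts scaled by library total and TMM factor), with 49.6% of the variance, set wild-type replicate 1 (a score of 63.4) off from the other 5 libraries (-28.5 to 13.4). That library also had the highest sum of 6 cardiomyocyte markers (69.3 TPM, against 0.988 to 9.05 TPM in the other 5 libraries) and the lowest sum of 12 G2/M markers (92.8 TPM, against 379 to 759 TPM).

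All 10 genes had reads in every library. Their levels are given as means ± SD of TPM, set per gene length, over 3 libraries of each genotype. Impact, an inhibitor of the stress kinase GCN2, averaged 86.6 ± 13.1 TPM in Ts1Cje and 76.3 ± 9.09 TPM in wild-type. Cdkn1c, an inhibitor of cyclin-dependent kinases also called p57, averaged 91.0 ± 12.8 TPM in Ts1Cje and 51.0 ± 51.8 TPM in wild-type. Igf2r, the receptor that carries IGF2 and mannose-6-phosphate tagged enzymes to the lysosome, averaged 44.9 ± 14.8 TPM in Ts1Cje and 49.3 ± 14.0 TPM in wild-type. By mean TPM over the 6 libraries Impact ranked 1808th and Igf2r 2974th of all genes in the table. Sgce, epsilon-sarcoglycan, averaged 10.1 ± 1.67 TPM in Ts1Cje and 16.4 ± 1.81 TPM in wild-type, and Snrpn, a core protein of the splicing machinery best known from neurons, averaged 9.34 ± 1.51 TPM in Ts1Cje and 9.73 ± 2.63 TPM in wild-type. The highest library of Sgce (18.5 TPM) lay below the lowest of Igf2r (29.1 TPM), but above the lowest of Cdkn1c (16.2 TPM, wild-type replicate 2).

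Peg3, Ndn, Grb10, Plagl1 and Peg10 were the lowest, and the highest value among them (6.28 TPM, Ndn in Ts1Cje replicate 2) lay below the lowest of Snrpn (7.61 TPM). Peg3, a zinc-finger protein, averaged 3.92 ± 1.36 TPM in Ts1Cje and 3.50 ± 1.75 TPM in wild-type. Ndn, the growth suppressor Necdin, averaged 3.55 ± 2.44 TPM in Ts1Cje and 0.996 ± 0.434 TPM in wild-type. Grb10, an adaptor that dampens insulin and IGF receptors, Plagl1, a zinc-finger protein also called Zac1, and Peg10 lay between 0.258 and 1.89 TPM in every library. The ranges of these 5 genes overlapped from each to the next, and so did those of Sgce and Snrpn, while the lowest library of Impact (69.9 TPM) lay above the highest of Igf2r (62.3 TPM). The range of Cdkn1c, from 16.2 to 111 TPM over the 6 libraries, covered both of those genes and reached into that of Sgce.

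**Figure D1:**
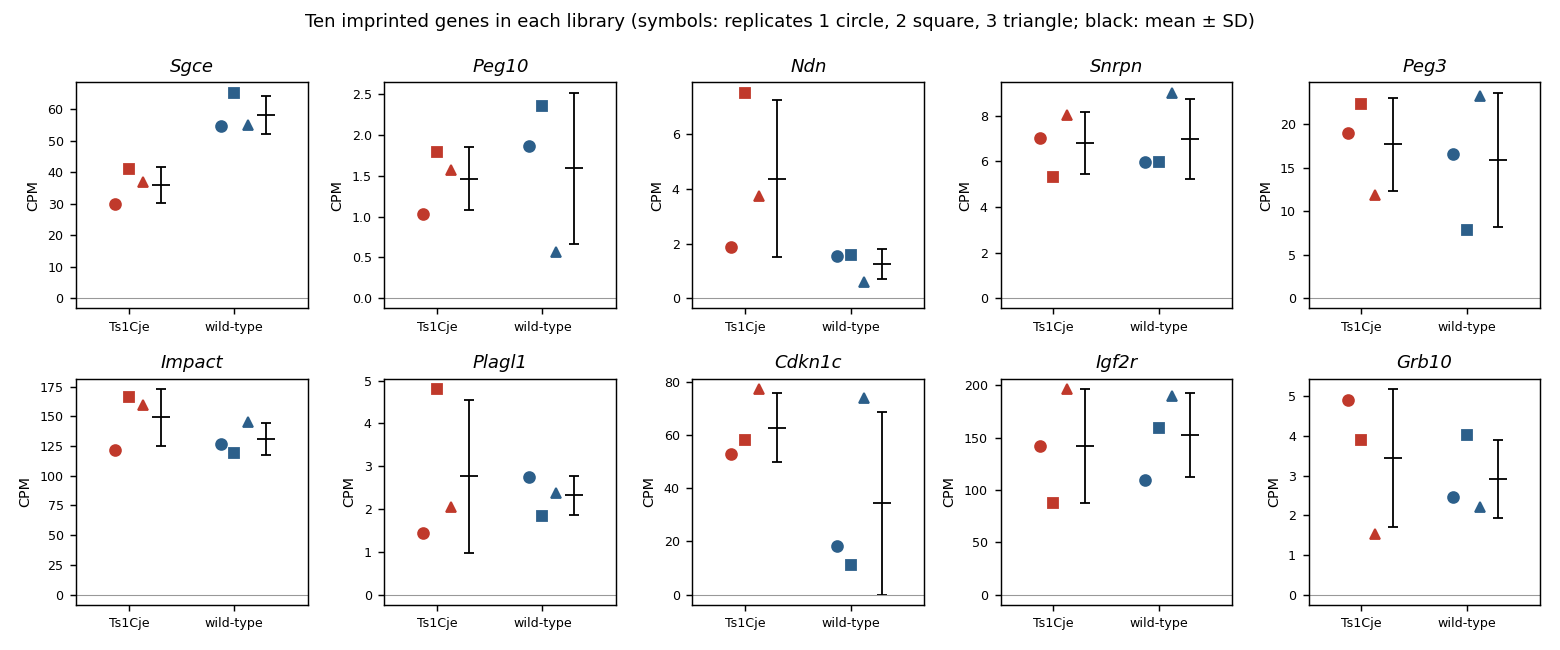
CPM (counts scaled by library total and TMM factor) of the 10 genes in each library, Ts1Cje left and wild-type right in every panel, with the mean ± SD of 3 libraries in black and axes that differ between panels. The groups are apart for Sgce (29.9 to 41.1 CPM in Ts1Cje, 54.5 to 65.3 CPM in wild-type) and Ndn, while wild-type replicate 3 of Cdkn1c (73.8 CPM) sits among the Ts1Cje libraries.

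Between the genotypes, the data show lower values of Sgce and higher values of Ndn in every Ts1Cje library, a split Cdkn1c, and overlapping groups for the other 7 genes. None of these differences passed the test across all genes: edgeR's quasi-likelihood test called 0 of the 10 genes at a Benjamini-Hochberg adjusted p under 0.05, where it called 0.00724% of the 13821 genes tested. DESeq2 and limma-voom also called 0 of the 10, against 0.405% and 0.00724% of all genes. At an unadjusted p under 0.05 edgeR gave 2 of the 10, Ndn and Sgce, and 5.79% of all genes. The groups did not overlap for the same 2 genes, and for 12.1% of all genes tested, with 6.38% higher in Ts1Cje, as Ndn was, and 5.72% lower, as Sgce was. The median log2 fold change of Ts1Cje over wild-type was 0.17 over the 10 genes, with 6 positive and 4 negative, and -0.01 over all genes tested. Leaving out single libraries turned the sign of the log2 fold change of Peg10, Igf2r, Grb10, Peg3, Plagl1 and Snrpn and of none of the other 4. As these are bulk libraries, fewer cells of a type and less RNA per cell cannot be told apart.

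**Figure D2:**
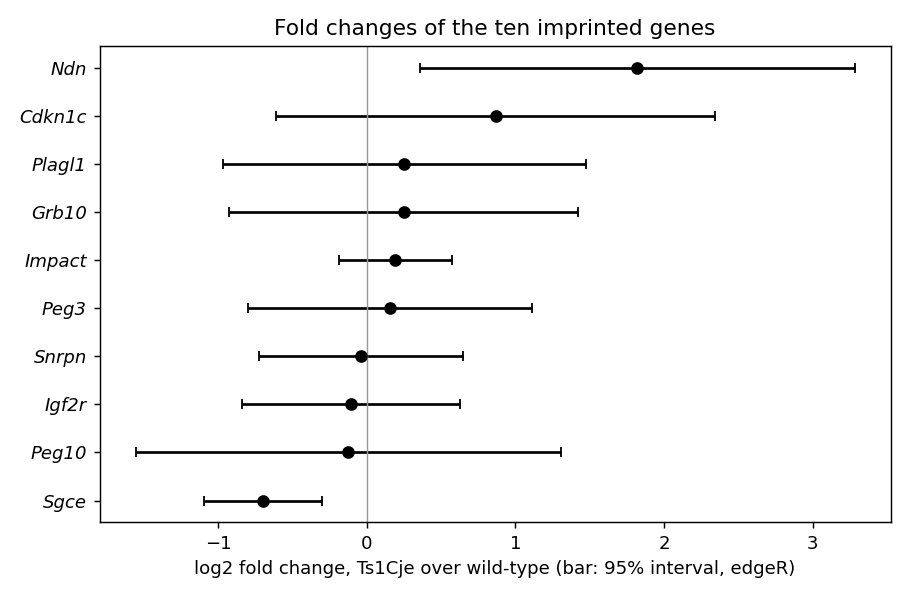
Log2 fold change of Ts1Cje over wild-type for the 10 genes from edgeR, with bars for the 95% interval. The interval leaves 0 to one side for Ndn (0.36 to 3.28) and Sgce (-1.09 to -0.30) and is widest for Cdkn1c, Ndn and Peg10.

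Sgce and Peg10 sit head to head on chromosome 6, with 98 bases between Sgce (chr6:4674350-4747207, minus strand) and Peg10 (chr6:4747306-4760517, plus strand), and are known to share a methylated start region. Sgce had 29.9, 41.1 and 36.8 CPM in Ts1Cje replicates 1 to 3, against 54.5, 65.3 and 55.0 CPM in the wild-type replicates. All 3 Ts1Cje libraries lay below all 3 wild-type libraries, with a gap wider than the SD of either group (means of 35.9 ± 5.63 CPM in Ts1Cje and 58.3 ± 6.08 CPM in wild-type, n = 3 each). The log2 fold change was -0.70 ± 0.17 (SE), with an edgeR adjusted p of 0.792 over all genes and an unadjusted p of 0.00389. Its unadjusted p stayed under 0.05 in 17 of 17 alternative settings, with adjusted p of 0.0958 (DESeq2) to 0.990, and the log2 fold change was -0.75 without wild-type replicate 1.

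For Peg10 the groups overlapped. Its counts were 35, 48 and 46 in Ts1Cje and 46, 63 and 15 in wild-type, which gave 1.04, 1.79 and 1.57 CPM in Ts1Cje and 1.86, 2.36 and 0.564 CPM in wild-type. The wild-type libraries held both its highest and its lowest value, and the log2 fold change was -0.12 (95% interval -1.56 to 1.31, edgeR adjusted p = 0.974). Per gene length, Sgce was far above its neighbour in each library, with a Sgce to Peg10 ratio of TPM of 18.2, 14.4 and 14.7 in Ts1Cje and 18.4, 17.4 and 61.3 in wild-type. The ratio of 61.3 belongs to the wild-type library with 15 Peg10 counts, and the other 5 libraries lay between 14.4 and 18.4.

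Of the other imprinted genes within 2 Mb, Ppp1r9a, the actin-binding protein neurabin, lies 155710 bases from Sgce. It had 393, 439 and 504 counts in Ts1Cje and 1146, 939 and 622 counts in wild-type, so that these groups did not overlap either. Its log2 fold change was -1.22 ± 0.28, with an edgeR adjusted p of 0.792 and a DESeq2 adjusted p of 0.0357, the only call among the imprinted genes examined under the 17 alternative settings. Without wild-type replicate 1 the log2 fold change was -0.97. Asb4, Pon2 and Pon3, which lie farther along the same side, had overlapping groups and log2 fold changes of -0.05 ± 0.29, -0.27 ± 0.18 and -0.09 ± 0.15. Calcr and Tfpi2 did not pass the filter on low counts.

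Epsilon-sarcoglycan belongs to a family of membrane proteins bound to dystroglycan in muscle. Of 8 genes of that complex listed, Sgcb, Dag1 and Sspn were tested, and Sgca had no reads. Sgcb, beta-sarcoglycan, had 49.1, 52.2 and 48.0 TPM in Ts1Cje and 37.1, 43.4 and 41.8 TPM in wild-type. Its groups did not overlap and ran opposite to those of Sgce, at a log2 fold change of 0.29 ± 0.13 (edgeR adjusted p = 0.792). The ratio of Sgcb to Sgce in TPM was 5.62, 4.36 and 5.00 in Ts1Cje and 2.47, 2.35 and 2.64 in wild-type. That difference follows from the opposite directions of both genes and is no further result. Dag1, dystroglycan, averaged 112 ± 12.5 TPM in Ts1Cje and 135 ± 9.72 TPM in wild-type and its groups did not overlap in CPM. Groups did not overlap for 12.1% of all genes tested. Of 11 relatives of Peg10 among the domesticated retrotransposon genes and their partners, 6 were tested, 0 were called, and all 6 log2 fold changes were below 0, with a median of -0.34. Over all 13821 genes tested, 7024 were below 0.

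**Figure D3:**
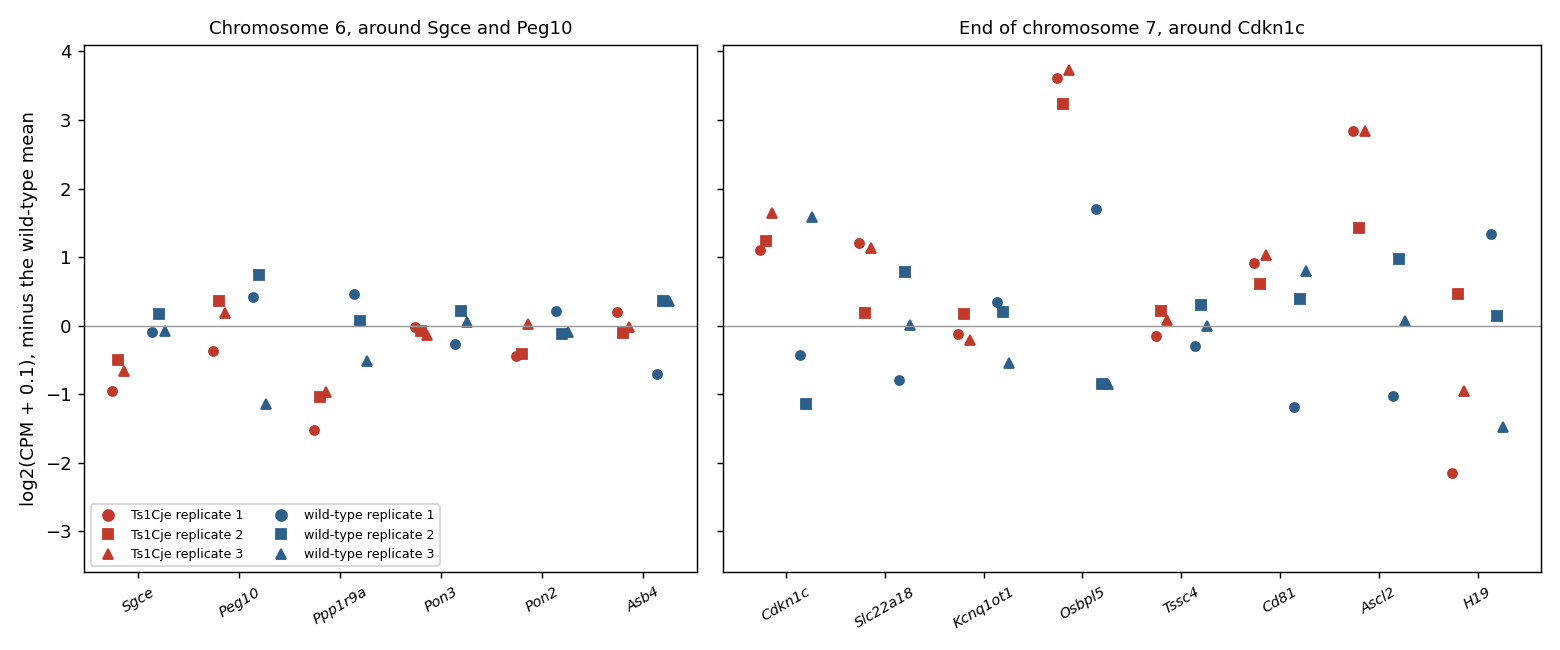
Values of imprinted genes near Sgce and Peg10 (left) and near Cdkn1c (right) in each library, as log2(CPM + 0.1) minus the mean of the 3 wild-type libraries, with Ts1Cje in red and wild-type in blue. Sgce and Ppp1r9a lie below 0 in all 3 Ts1Cje libraries while Peg10, Pon2, Pon3 and Asb4 overlap, and Osbpl5 and Ascl2 lie above the wild-type libraries in all 3.

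Ndn and Snrpn belong to the cluster on chromosome 7 whose human counterpart is lost in Prader-Willi syndrome. Ndn (chr7:62346569-62350262, plus strand) is a gene without introns. It had 63, 202 and 110 counts in Ts1Cje, against 38, 42 and 16 counts in wild-type, or 1.86, 7.52 and 3.75 CPM in Ts1Cje and 1.54, 1.57 and 0.601 CPM in wild-type. The groups did not overlap, but Ts1Cje replicate 1 lay close above the highest wild-type library and Ts1Cje replicate 2 was far above the rest. The log2 fold change was 1.82 ± 0.63 (95% interval 0.36 to 3.28), with an unadjusted p of 0.0212 and an edgeR adjusted p of 0.792. Without Ts1Cje replicate 2 it was 1.18, with an unadjusted edgeR p of 0.111, and it was 2.00 when wild-type replicate 1 was left out. The summed level of 12 mesenchymal markers was also highest in Ts1Cje replicate 2, at 36.2 TPM, against 6.93 and 7.13 TPM in the other Ts1Cje libraries and 21.2, 7.75 and 9.66 TPM in wild-type. Of those markers 6 passed the filter on low counts and Thy1 was at 0 throughout. The part of such cells in the Ndn values was not tested.

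The neighbours of Ndn were nearly silent. Mkrn3, 67331 bases away, had 14, 12 and 28 counts in Ts1Cje and 20, 4 and 0 counts in wild-type, with a log2 fold change of 0.92 ± 1.21. Peg12 had 10, 4 and 6 counts in Ts1Cje and 0 in each wild-type library, too few for the test, and Magel2 had no reads. Necdin is a MAGE protein, and of the 6 other MAGE genes and partners listed all were tested and 0 were called. Mageh1 alone had groups that did not overlap, with means of 4.92 TPM in Ts1Cje and 7.93 TPM in wild-type.

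Snrpn (chr7:59982495-60140219, minus strand) had 7.04, 5.33 and 8.05 CPM in Ts1Cje and 5.99, 5.98 and 9.02 CPM in wild-type. The groups overlapped almost fully, and the log2 fold change was -0.04 (95% interval -0.72 to 0.65, edgeR adjusted p = 0.983). The annotation lets Snrpn share 589 of its 2159 exon bases with Gm38393 on the same strand and 216 with Snurf, so part of its reads could have been assigned elsewhere or dropped in counting. Snhg14, the long non-coding RNA that runs on from Snrpn, and Ube3a, at the far end of the cluster, had log2 fold changes of 0.11 ± 0.32 and -0.01 ± 0.15. SmN, the product of Snrpn, stands in for SmB, the product of Snrpb, in neurons. Here Snrpb exceeded Snrpn 20.3, 25.3 and 17.0 times in Ts1Cje and 17.7, 17.6 and 17.2 times in wild-type, by TPM. Of 7 genes of the Sm ring listed 6 were tested, and all had overlapping groups.

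Cdkn1c (chr7:143458339-143461050, minus strand) arrests the cell cycle by inhibiting cyclin-dependent kinases. It had 52.8, 58.1 and 77.3 CPM in Ts1Cje, against 18.2, 11.0 and 73.8 CPM in wild-type. The Ts1Cje libraries lay close together, while wild-type replicates 1 and 2 lay below all of them and wild-type replicate 3 lay among them. The log2 fold change was 0.87 ± 0.63 (95% interval -0.61 to 2.34, edgeR adjusted p = 0.826). Without wild-type replicate 3 it was 2.11, with an edgeR adjusted p of 0.0910. It was 0.55 without wild-type replicate 1 and 0.44 without wild-type replicate 2. In the annotation 625 of its 2039 exon bases overlap Gm44732 on the opposite strand, and no source used here says whether strand was used in counting. The summed G2/M markers were 759, 630 and 379 TPM in Ts1Cje and 92.8, 655 and 689 TPM in wild-type, so of the 2 wild-type libraries low in Cdkn1c only replicate 1 was low in G2/M markers.

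By mean TPM, Cdkn1c was second among the inhibitors to Cdkn1a, which encodes p21. In wild-type replicate 2, however, its 16.2 TPM lay below Cdkn2c at 36.7 TPM and Cdkn2d at 55.2 TPM, which encode inhibitors of the INK4 family. Cdkn1a had 366, 386 and 384 TPM in Ts1Cje and 549, 377 and 312 TPM in wild-type, with a log2 fold change of -0.12 ± 0.23. It exceeded Cdkn1c in TPM 4.57, 4.40 and 3.65 times in Ts1Cje and 21.0, 23.2 and 2.82 times in wild-type. Of the 6 other inhibitors all were tested and 0 were called, with overlapping groups for each. Cdkn1b, which encodes p27, was highest in wild-type replicates 1 and 2, where Cdkn1c was lowest. It had 1.73, 1.11 and 1.60 TPM in Ts1Cje and 3.17, 3.77 and 1.41 TPM in wild-type, from 44 to 153 counts. Its log2 fold change was -0.90 ± 0.46 (edgeR adjusted p = 0.792).

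**Figure D4:**
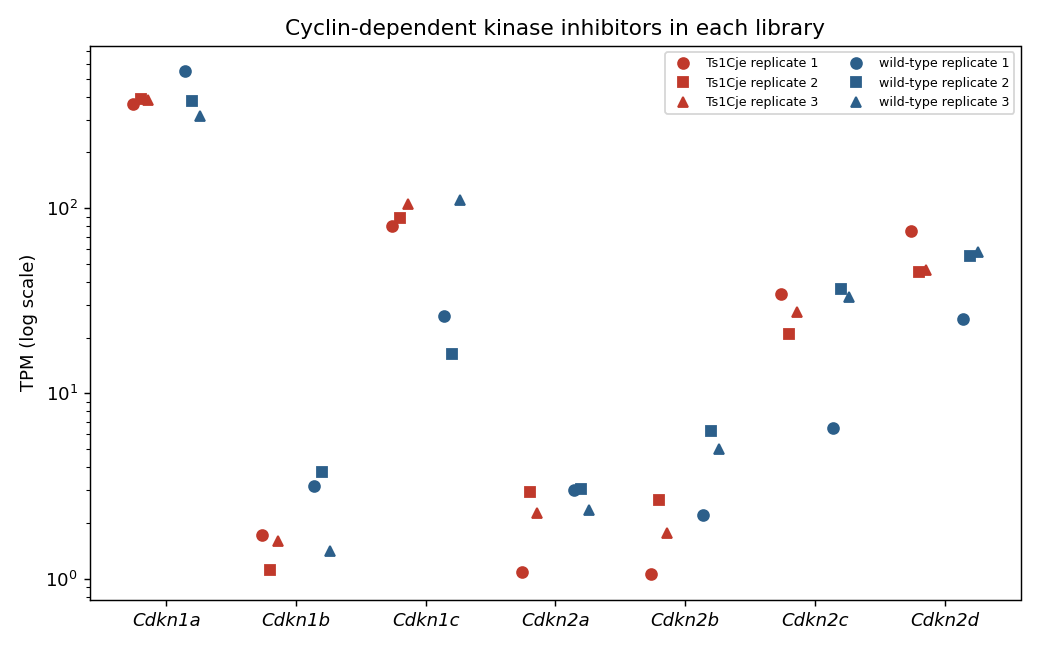
TPM of 7 inhibitors of cyclin-dependent kinases in each library on a log axis, Ts1Cje in red left of wild-type in blue. Cdkn1c spans 16.2 to 111 TPM, and the low values are wild-type replicates 1 and 2, while Cdkn1a stays between 312 and 549 TPM.

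Cdkn1c lies in a domain governed by the non-coding RNA Kcnq1ot1. Kcnq1ot1 itself had 883, 857 and 722 counts in Ts1Cje and 894, 872 and 518 counts in wild-type, with a log2 fold change of -0.09 ± 0.25. Osbpl5, which encodes an oxysterol-binding protein, had 71, 43 and 67 counts in Ts1Cje and 12, 0 and 0 counts in wild-type. Ascl2, a transcription factor of the placenta, had 46, 12 and 40 counts in Ts1Cje and 0, 8 and 3 counts in wild-type. The groups did not overlap for either gene, and the log2 fold changes were 3.61 ± 1.32 and 2.89 ± 1.08, each with an edgeR adjusted p of 0.792. Without wild-type replicate 1 the Osbpl5 counts of wild-type are all 0, and the log2 fold change of Ascl2 ran from 2.33 to 4.09 with single libraries left out. Both genes were also low in wild-type replicate 3, the library in which Cdkn1c was high. The summed level of 10 endoderm and epithelial markers was 22.0, 26.2 and 20.9 TPM in Ts1Cje and 50.2, 1.57 and 6.12 TPM in wild-type, and its part in these 2 genes was not tested. Slc22a18, the closest neighbour at 12686 bases, Tssc4 and Cd81 had overlapping groups, with log2 fold changes of 0.80 ± 0.53, 0.04 ± 0.22 and 0.65 ± 0.44. H19, farther on, had 41, 214 and 85 counts in Ts1Cje and 361, 170 and 53 counts in wild-type, and Igf2 had 0, 1 and 0 counts in Ts1Cje and 2, 4 and 0 counts in wild-type.

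The log2 CPM of Cdkn1c and Ndn each spanned more than 2 units over the 6 libraries. The tested genes closest to Cdkn1c in pattern, by root mean square difference of centred log2 CPM over the 6 libraries, were Csnk1g2 (0.254), Camsap3 (0.280) and Adgra3 (0.337). Csnk1g2, a casein kinase, had 41.0, 35.9 and 45.0 CPM in Ts1Cje and 8.29, 8.30 and 44.4 CPM in wild-type, so it too was low in wild-type replicates 1 and 2. The genes closest to Ndn were Gm10705 (0.394), the folate receptor gene Folr2 (0.424) and Zfp658 (0.452). These genes were picked for likeness to the pattern out of all genes, so their likeness has no test.

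Igf2r (chr17:12682406-12769664, minus strand) and Grb10 (chr11:11930508-12038683, minus strand) both act on IGF signalling. Igf2r had 142, 87.9 and 197 CPM in Ts1Cje and 110, 159 and 190 CPM in wild-type. The ranges of the genotypes overlapped across most of their width, and the log2 fold change was -0.11 (95% interval -0.84 to 0.62, edgeR adjusted p = 0.955). Airn, the non-coding RNA that silences the father's copy of Igf2r, overlaps it on the opposite strand. Its counts were 67, 23 and 38 in Ts1Cje and 32, 42 and 26 in wild-type, with a log2 fold change of 0.11 ± 0.53. Whether strand was used in counting is not known, and the part of Igf2r reads in the Airn counts was not tested. M6pr, the smaller mannose-6-phosphate receptor, was above Igf2r in each library, 6.46, 10.4 and 5.24 times by TPM in Ts1Cje and 9.72, 6.12 and 4.48 times in wild-type. All 7 genes listed for this sorting route were tested, 0 were called, and their median log2 fold change was 0.04.

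Grb10 had 4.91, 3.91 and 1.53 CPM in Ts1Cje and 2.47, 4.04 and 2.22 CPM in wild-type. Ts1Cje libraries held both its highest and its lowest value, and the log2 fold change was 0.25 (95% interval -0.93 to 1.42, edgeR adjusted p = 0.931). Its neighbour Ddc had a log2 fold change of -0.11 ± 0.88. Of 11 genes of IGF and insulin signalling listed, 8 were tested and 0 were called, and 2 had an unadjusted p under 0.05, both lower in Ts1Cje, as were 2.8% of all genes tested. Igf1r, the IGF1 receptor, had 37.0, 41.5 and 24.0 CPM in Ts1Cje and 81.7, 44.7 and 50.8 CPM in wild-type. Those groups did not overlap, and the log2 fold change was -0.79 ± 0.29 (edgeR adjusted p = 0.792). Insr, the insulin receptor, had 18.2, 17.6 and 19.3 CPM in Ts1Cje and 43.3, 30.3 and 17.4 CPM in wild-type, with a log2 fold change of -0.72 ± 0.31 (edgeR adjusted p = 0.792). For Insr wild-type replicate 3 lay just below the Ts1Cje libraries, and without wild-type replicate 1 the log2 fold changes of Igf1r and Insr were -0.49 and -0.39. Igf1, the ligand that macrophages secrete, stood at 320, 369 and 258 TPM in Ts1Cje and 409, 235 and 355 TPM in wild-type, with a log2 fold change of -0.08 ± 0.24.

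Impact (chr18:12955852-12992950, plus strand) had 122, 166 and 160 CPM in Ts1Cje and 127, 119 and 146 CPM in wild-type. Ts1Cje replicates 2 and 3 were above all wild-type libraries and Ts1Cje replicate 1 was among them. The log2 fold change was 0.19, and its 95% interval of -0.19 to 0.57 was the narrowest of the 10 genes (edgeR adjusted p = 0.837). IMPACT competes with GCN2 for its activator GCN1. Of 7 genes of that stress pathway listed, all were tested, 0 were called and all had overlapping groups, with Eif2ak4, which encodes GCN2, at 12.1 TPM in Ts1Cje and 11.5 TPM in wild-type on average.

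Peg3 (chr7:6703892-6730431, minus strand) had 642, 598 and 347 counts in Ts1Cje and 409, 209 and 619 counts in wild-type, or 4.32, 5.04 and 2.41 TPM in Ts1Cje and 3.55, 1.72 and 5.22 TPM in wild-type. The groups overlapped, with a log2 fold change of 0.16 (95% interval -0.80 to 1.11, edgeR adjusted p = 0.948). Usp29, which starts 146 bases from Peg3 on the other strand, had 0, 2 and 10 counts in Ts1Cje and 22, 0 and 0 counts in wild-type and was not tested. The 4 genes listed as partners of Peg3 in cell death, Siah1a, Siah1b, Siah2 and Traf2, were tested, and all 4 had overlapping groups and 0 were called.

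Plagl1 (chr10:13060504-13131694, plus strand) had 1.45, 4.80 and 2.05 CPM in Ts1Cje and 2.75, 1.83 and 2.37 CPM in wild-type. Ts1Cje replicate 2, the library with the highest Ndn, was the highest, and Ts1Cje replicate 1 the lowest. The log2 fold change was 0.25 (95% interval -0.97 to 1.47, edgeR adjusted p = 0.933), and -0.40 without Ts1Cje replicate 2. Plag1, its growth-promoting relative, had 36, 5 and 11 counts in Ts1Cje and 76, 60 and 96 counts in wild-type. Those groups did not overlap, and the log2 fold change was -2.43 ± 0.68 (edgeR adjusted p = 0.792). Plagl2, the other relative, averaged 23.1 TPM in Ts1Cje and 23.3 TPM in wild-type.

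The 10 genes differed in how much they varied between libraries of a genotype. The pooled within-genotype SD of log2 CPM was 0.194 for Sgce and 0.200 for Impact, below the median of 0.339 over all genes tested, and 0.320 for Snrpn. It was 1.02 for Cdkn1c, larger than for 88.6% of genes tested, and 0.870 for Ndn, larger than for 84.6%. For Cdkn1c the spread lay in wild-type, with an SD of 0.285 in Ts1Cje and 1.42 in wild-type. For Peg10 it did too, with 0.390 in Ts1Cje and 1.03 in wild-type, and for Plagl1 it lay in Ts1Cje, with 0.866 in Ts1Cje and 0.287 in wild-type. Peg10, Ndn, Plagl1 and Grb10 had few counts, between 15 and 202 in every library, and the part of counting error in their spread was not tested.

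Among 57 other imprinted genes listed, 55 were in the tables, 10 had no reads in any library and 33 were tested, and 0 were called by edgeR. At an unadjusted p under 0.05 the test gave 3 higher and 3 lower in Ts1Cje, where 2.99% and 2.8% of all genes tested passed. Their median log2 fold change was -0.05, with 15 positive and 18 negative. Of 13 tested genes read from the father's copy, 0 were higher and 3 were lower in Ts1Cje without overlap between the groups, as were 6.38% and 5.72% of all genes tested. The 3 lower ones were Peg13, Slc38a4 and Zrsr1. Peg13, a non-coding RNA, had 186, 133 and 169 counts in Ts1Cje and 394, 247 and 266 counts in wild-type (log2 fold change -1.12 ± 0.28, edgeR adjusted p = 0.792). Slc38a4, an amino acid transporter, had 98, 104 and 23 counts in Ts1Cje and 105, 445 and 509 counts in wild-type (log2 fold change -2.40 ± 0.71, edgeR adjusted p = 0.792). Zrsr1, a splicing factor retrogene, had 63, 20 and 57 counts in Ts1Cje and 75, 75 and 76 counts in wild-type, and Inpp5f, a phosphatase of membrane lipids, had a log2 fold change of -0.38 ± 0.23. Mcts2 had the highest level among these, at 38.2 TPM in Ts1Cje and 40.1 TPM in wild-type on average. However, it is a copy of another gene and lies in an intron of H13, so its reads are uncertain. Peg13 likewise lies within the span of Trappc9 on the same strand, and Zrsr1 within that of Commd1 on the opposite strand. The part of reads from Trappc9 and Commd1 in their counts was not tested.

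Of 20 tested genes read from the mother's copy, 3 were higher and 1 was lower in Ts1Cje without overlap, again beside 6.38% and 5.72% of all genes tested. Beside Osbpl5, Ascl2 and Ppp1r9a above, this was H13, a signal peptide peptidase, with 69.3, 56.7 and 59.8 CPM in Ts1Cje and 41.8, 41.6 and 50.5 CPM in wild-type. Its log2 fold change was 0.47 ± 0.15 (edgeR adjusted p = 0.792). The most abundant were Cd81, a membrane tetraspanin, at 478 ± 54.4 TPM in Ts1Cje and 310 ± 181 TPM in wild-type, the paraoxonases Pon2 and Pon3, and Blcap. Many genes of this list are imprinted only in placenta or brain, and their status in macrophages was not measured.

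Most genes of the proteins that copy, read and protect imprints were read in both genotypes, Dnmt3a, Trim28, Dnmt1 and Setdb1 at the highest level. Dnmt3l had no reads in any library. Of 22 such genes listed 20 were tested, 0 were called, 0 had an unadjusted p under 0.05 and 0 had groups apart, with log2 fold changes from -0.56 to 0.50 around a median of -0.08. Dnmt1, which copies DNA methylation at division, had 62.7, 48.5 and 38.1 TPM in Ts1Cje and 33.0, 42.5 and 56.2 TPM in wild-type. The de novo methyltransferase Dnmt3a averaged 62.7 ± 4.38 TPM in Ts1Cje and 64.8 ± 8.52 TPM in wild-type. Trim28 and Setdb1, which act together to keep imprints, had log2 fold changes of 0.28 ± 0.17 and -0.18 ± 0.15. Tet2 and Tet3, which oxidise methylated DNA, had -0.56 ± 0.32 and -0.32 ± 0.26, the first with the smallest unadjusted edgeR p of the list (0.124, adjusted p = 0.798). Zfp57, whose hexamer is described above, had 2, 4 and 3 counts in Ts1Cje and 4, 10 and 6 counts in wild-type, too few for the test.

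Over all 69 genes listed as partners or relatives of the 10, 55 were tested and 0 were called. Of these, 20 had a positive and 35 a negative log2 fold change, with a median of -0.08, and the 3 with an unadjusted p under 0.05 were Plag1, Igf1r and Insr, all lower in Ts1Cje. Over all genes tested, 5.79% had such a p, and 2.8% were also lower in Ts1Cje. The log2 fold change was negative for 7024 of those 13821 genes.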

How the data were processed

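RNA was measured in 6 libraries, 3 Ts1Cje and 3 wild-type, made with a SMART-seq HT Plus kit, per the labels' protocols. Per the submitters' processing notes, HISAT2 2.1.0, featureCounts 1.6.3, Trimmomatic 0.38 and FastQC 0.11.7 were used, with mm10; no source used here gives strand or multimapping settings. The authors deposited raw counts per gene and TPM, with 0 other columns per sample. In all 14364 genes with at least 50 counts in total, the deposited TPM equalled the count over a gene length, rescaled per library, within a tolerance of 0.01. Of 44106 counts from 1 to 50, 61.5% were even, so a count may not always be a separate molecule. The errors given come from the edgeR fit, which uses both the counts and the spread between libraries.

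Counts were tested with edgeR 4.0.16 in R 4.3.3 (filterByExpr with minima of 10 counts and 15 in total, TMM factors, quasi-likelihood test, Benjamini-Hochberg over 13821 genes, threshold 0.05, two-sided, genotype as the only term), a procedure also tested on simulated data. SE is the log2 fold change over the root of F. Log2 CPM used a prior count of 2. DESeq2 1.42.0, limma 3.58.1 on voom weights or on log2 TPM, other scaling and filters, a replicate block and leaving out each library were the alternatives. Sequences came from RefSeq promoters (GRCm38.p6) and GENCODE M21.

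The 10 genes and the lists (other imprinted genes, imprint-keeping genes, partners and relatives, and cell type markers) were chosen with earlier results of these data known. Named are all 10 genes; of each list the genes past the threshold, the 4 with the smallest p and the 4 with the highest mean TPM; and the 3 genes most like each of the 10 whose log2 CPM spans more than 2 units, among genes of mean log2 CPM above 1. Of the marker lists, the top 3 macrophage genes, genes at 0 and some genes of the pluripotency, neural, and megakaryocyte and mast cell lists are named. Other genes were chosen after their values were seen, and results of some listed genes are not reported here.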

Additional observations from a re-analysis of the deposited data

How the results depend on the processing

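Under all 17 alternatives 0 of the 10 imprinted genes were called, and the median of their log2 fold changes ran from 0.09 to 0.25. Of 165 values of the 10 genes under alternatives, 153 kept their direction and side of the threshold and 12 reversed; the cause was not tested. Peg10 reversed to 0.051 with limma-voom. Leaving out each library in turn, the log2 fold changes ran from -0.52 to 0.26 for Peg10, -0.42 to 0.15 for Igf2r, -0.094 to 0.59 for Grb10, -0.18 to 0.54 for Peg3, -0.40 to 0.57 for Plagl1 and -0.18 to 0.19 for Snrpn. Among other genes they crossed 0 for Mcts2 (-0.21 to 0.078), Pon3 (-0.23 to 0.011), Blcap (-0.069 to 0.15), Tet3 (-0.50 to 0.0045), Dnmt3a (-0.14 to 0.044), Cdkn1a (-0.29 to 0.15), Igf1 (-0.29 to 0.11) and M6pr (-0.095 to 0.053). Over all genes tested, edgeR called 1; the count was 3 with no filter, 56 with DESeq2 and 4 with limma on log2(TPM + 0.1), and ran from 1 to 6 without each library, with the 6 without wild-type replicate 3. Of the other imprinted genes, DESeq2 called 1, Ppp1r9a.

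With the replicate number as a block, 0 genes were called in all, 0 of them among the 10, and Peg10 reversed to 0.037. Same-numbered libraries did not deviate together (correlations of -0.295, -0.0448 and -0.173 over 10797 genes), so the numbers were not taken to pair samples. Under the block Cdkn1c had a log2 fold change of 1.34 (unadjusted p = 0.0342).

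With 3 libraries of each genotype, the 95% intervals were widest for Cdkn1c (-0.61 to 2.34), Ndn (0.36 to 3.28) and Peg10 (-1.56 to 1.31), and the part of depth in their width was not tested.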

Other observations

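Markers of other cell types were read at the following summed levels over each list. The 8 endothelial markers summed to 12.5 to 30.9 TPM in Ts1Cje and 7.65 to 28.2 TPM in wild-type, with Emcn and Cldn5 at 0 throughout. The 6 neural markers summed to 9.79 to 35.2 TPM in Ts1Cje and 12.3 to 28.3 TPM in wild-type, with Sox1 at 0 throughout. Nes made up nearly all of that sum, at 9.47 to 35.0 TPM in Ts1Cje and 12.3 to 28.1 TPM in wild-type. Map2, Pax6, Tubb3 and Dcx were at no more than 0.307 TPM in any library. The 8 erythroid markers summed to 1.76 to 13.4 TPM in Ts1Cje and 0.635 to 35.4 TPM in wild-type. The 8 megakaryocyte and mast cell markers summed to 187 to 620 TPM in Ts1Cje and 138 to 772 TPM in wild-type, with Cma1, Mcpt4, Tpsb2 and Fcer1a at 0 throughout. Nearly all of that sum was Pf4, at 187 to 619 TPM in Ts1Cje and 138 to 771 TPM in wild-type. Itga2b, Gp9 and Cpa3 were at no more than 1.06 TPM in any library. The 8 granulocyte markers summed to 0.464 to 2.80 TPM in Ts1Cje and 0.729 to 2.07 TPM in wild-type, and none passed the filter on low counts.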
